A study of Homo sapiens with 24 samples.

Results

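A pair of clear cell renal cell carcinoma (ccRCC) lines, OS-LM1 and 786-M1A, were compared by RNA-seq while the renal lineage factor PAX8 was depleted in both. The comparison takes the 8 OS-LM1 libraries that carried shPAX8-1 or shPAX8-2 against the 8 786-M1A libraries that carried the same constructs, which makes 16 of the 24 libraries of the series, with 4 replicates in each combination of line and construct. The other 8 libraries, 4 per line, carried sgNTC18, a non-targeting CRISPR guide, and did not enter the comparison. 786-M1A and OS-LM1 are metastatic derivatives of the 786-O and OS-RC2 lines, both are mutant for VHL, and each stands here for 1 tumour. The hairpins were delivered by lentivirus from doxycycline-inducible vectors, and all cells were grown in RPMI with serum and harvested before they were confluent. The question is how far the transcriptomes of these lines differ when the same lineage factor is reduced in both of them.

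PAX8 is a paired-box transcription factor that specifies kidney and thyroid during development and stays on in most renal carcinomas, where pathologists use it as a lineage marker. Loss of VHL, the ubiquitin ligase subunit that marks hypoxia-inducible factors for destruction, leaves HIF2A (encoded by EPAS1) and, where it is retained, HIF1A active at normal oxygen. Cell lines from different tumours also differ in copy number, in the differentiation state that they keep and in their cytokine and interferon output.

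The guide strands of the hairpins are printed because the 2 constructs differ in target site and left different amounts of PAX8 RNA in 786-M1A. The sequences run from the 5′ end, and capitals mark the seed, bases 2 to 8 of the 22.
shPAX8-1: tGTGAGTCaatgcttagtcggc
shPAX8-2: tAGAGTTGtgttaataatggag
A perfect match of shPAX8-1 lies on the minus strand at chr2:113241690-113241711 (GRCh38), in the coding or 5′ untranslated part of 10 of 14 annotated PAX8 transcripts. The match of shPAX8-2 lies at chr2:113218122-113218143 on the same strand, in the 3′ untranslated part of 7 of the 14.

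PAX8 itself (chromosome 2, 113215997 to 113278921) was higher in every OS-LM1 library than in any 786-M1A library. Levels are given as CPM, read counts scaled to the normalised size of the library. In 786-M1A the level was 23.0, 21.9, 15.1 and 14.8 CPM with shPAX8-1 and 41.4, 45.6, 42.7 and 40.0 CPM with shPAX8-2. In OS-LM1 it was 85.3, 78.0, 59.5 and 88.8 CPM with shPAX8-1 and 76.3, 63.3, 96.5 and 79.6 CPM with shPAX8-2. The lines did not overlap, and the constructs differed from each other in 786-M1A but overlapped in OS-LM1. The log2 fold change between lines was 1.47 ± 0.181 (SE; edgeR quasi-likelihood adjusted p = 3.3e-07), 2.06 within shPAX8-1 and 0.90 within shPAX8-2. Comparisons below are thus between lines with unequal residual PAX8. In the sgNTC18 libraries the lines stood the other way round, at 292 to 393 CPM in 786-M1A and 245 to 279 CPM in OS-LM1.

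Library totals ran from 11634419 to 52059375 expected counts. The first principal component of log2 CPM separated the lines and held 81.3% of the variance, and the second held 7%. On the second component replicates 3 and 4 of 786-M1A shPAX8-1 stood at -63.4 and -65.3, apart from replicates 1 and 2 of the same group at -7.11 and -17.2. Counts and medians of gene lists that moved by more than 1.5 times or changed sign without either pair, with a single construct or with the GC trend removed are given with those values. RNA was measured from whole cultures, so that fewer cells of a type and less RNA per cell cannot be told apart. The labels do not say whether replicates came from separate cultures, and p-values measure the spread between these libraries, which may be technical.

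Most of the transcriptome differed. Of 15101 genes tested, 12160 (80.5%) differed between the lines at an adjusted p under 0.05 (edgeR quasi-likelihood test, construct as covariate), 6093 (40.3%) higher in OS-LM1 and 6067 (40.2%) higher in 786-M1A. A difference of at least 1 on the log2 scale at that p, called a strong difference below, was found for 6826 genes (45.2%), of which 3309 (21.9% of all tested) were higher in OS-LM1 and 3517 (23.3%) higher in 786-M1A. The 8 libraries of one line did not overlap the 8 of the other for 7232 genes (47.9%), 3808 (25.2%) with OS-LM1 higher and 3424 (22.7%) with 786-M1A higher. The median log2 fold change of all genes was -0.00122 and the median size of the difference 0.895. All gene lists below are to be read against these shares, and log2 fold changes are OS-LM1 over 786-M1A throughout.

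The differences were largely shared by the constructs. Within shPAX8-1 6847 genes (45.3%) differed strongly and within shPAX8-2 7015 (46.5%). Of these, 5386 were strong with the same direction in both, which is 78.7% of the shPAX8-1 genes and 76.8% of the shPAX8-2 genes, and 14 were strong in opposite directions.

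**Figure D1:**
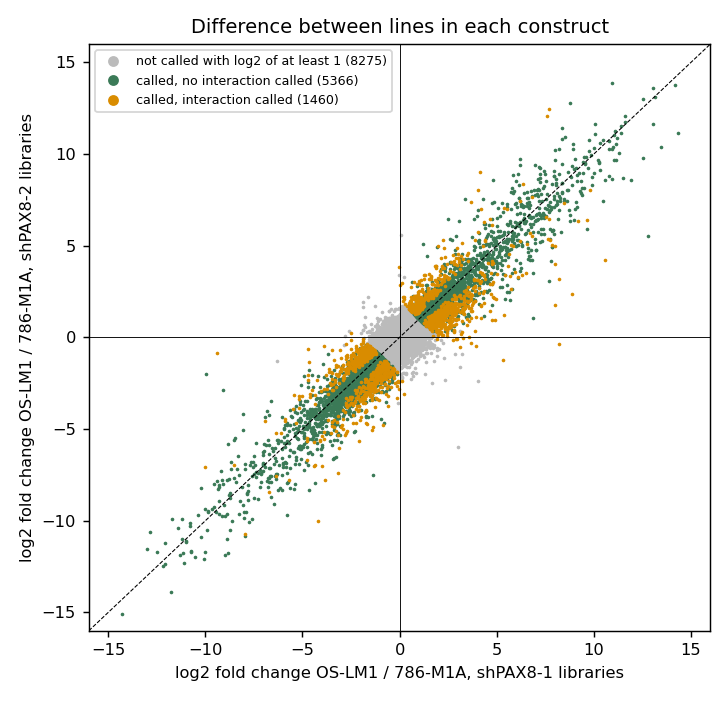
Each point is a gene, with its log2 fold change OS-LM1 over 786-M1A in the shPAX8-1 libraries on the x axis and in the shPAX8-2 libraries on the y axis (4 against 4 libraries each); the dashed line marks equality. Strongly differing genes lie along the diagonal, and orange marks the 1460 of them whose difference depended on the construct.

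A small part of the 6826 strong differences was between a gene that was on and a gene that was off. Taking off as a mean under 1 CPM and on as a mean of at least 10 CPM, 160 strongly differing genes were on in OS-LM1 only and 131 in 786-M1A only. Of these, 13 had no count in any 786-M1A library and 8 no count in any OS-LM1 library. For a gene without counts a fold is given as a lower bound, against a floor of 3 counts over the 8 libraries (0.0149 CPM in OS-LM1, 0.0217 CPM in 786-M1A).

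Among the 12 largest differences on the OS-LM1 side, A2M, the protease inhibitor alpha-2-macroglobulin, had 46.5 to 60.9 CPM in OS-LM1 (median 51.5) and no count in 786-M1A, at least 2420-fold higher. ADD2, a subunit of the membrane skeleton protein adducin, was at least 2830-fold higher (44.4 to 91.6 CPM), and the ubiquitin ligase TRIM32 at least 1920-fold (33.7 to 50.7 CPM). TEAD2, a DNA-binding partner of YAP, was at least 1010-fold higher (16.1 to 28.7 CPM). These 4 genes were silent in every 786-M1A library and expressed in every OS-LM1 library. The same held for ATL1, an endoplasmic reticulum GTPase (at least 879-fold higher), for TMEM246 (at least 761-fold) and for the translation termination factor GSPT2 (at least 671-fold). SLC16A9, a monocarboxylate transporter of the proximal tubule, had 43.8 to 79.5 CPM in OS-LM1 and 1 library above 0 in 786-M1A, a ratio of 8100 (95% counting interval 1450 to 320000). C8orf4 (now TCIM) had a ratio of 4120 (1410 to 20000). MMP12, macrophage elastase, had no count in 786-M1A, but in OS-LM1 it ran from 31.9 to 47.5 CPM with shPAX8-1 and from 0.0700 to 0.474 CPM with shPAX8-2, so its bound of 973-fold over the 8 libraries is carried by shPAX8-1. MAFIP (at least 4440-fold) and TEKT4P2 (ratio 7130, 1970 to 58800) belong to sequences with near-identical copies, and their values are uncertain.

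On the 786-M1A side, SLC17A9, the vesicular nucleotide transporter, had 87.7 to 231 CPM (median 164) and no count in OS-LM1, at least 10800-fold higher in 786-M1A. The transcription factors TSHZ3, TBX3 and ZSCAN18 were likewise without a count in OS-LM1. TSHZ3 had 25.3 to 39.0 CPM in 786-M1A (at least 2060-fold higher), TBX3, a T-box repressor, 17.3 to 38.2 CPM (at least 1800-fold) and ZSCAN18 14.6 to 24.3 CPM (at least 1240-fold). MDGA2, a cell adhesion protein, was at least 1320-fold higher. FLNC, filamin C of the actin cytoskeleton, ran from 366 to 833 CPM in 786-M1A and from 0.0378 to 0.255 CPM in OS-LM1 (log2 fold change -11.98 ± 0.235, edgeR adjusted p = 1.1e-18). Counts in OS-LM1 were 3 or fewer for SRPX (ratio 14900, 2670 to 588000), HDGFRP3 (now HDGFL3; 6740, 1210 to 266000), RGS10, a regulator of G protein signalling (6700, 1200 to 265000), and the kinase STK26 (5860, 1050 to 231000). MT1E (6660, 2280 to 32300), a metallothionein, and TBC1D3E (at least 1010-fold) have close paralogues and are uncertain.

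**Figure D2:**
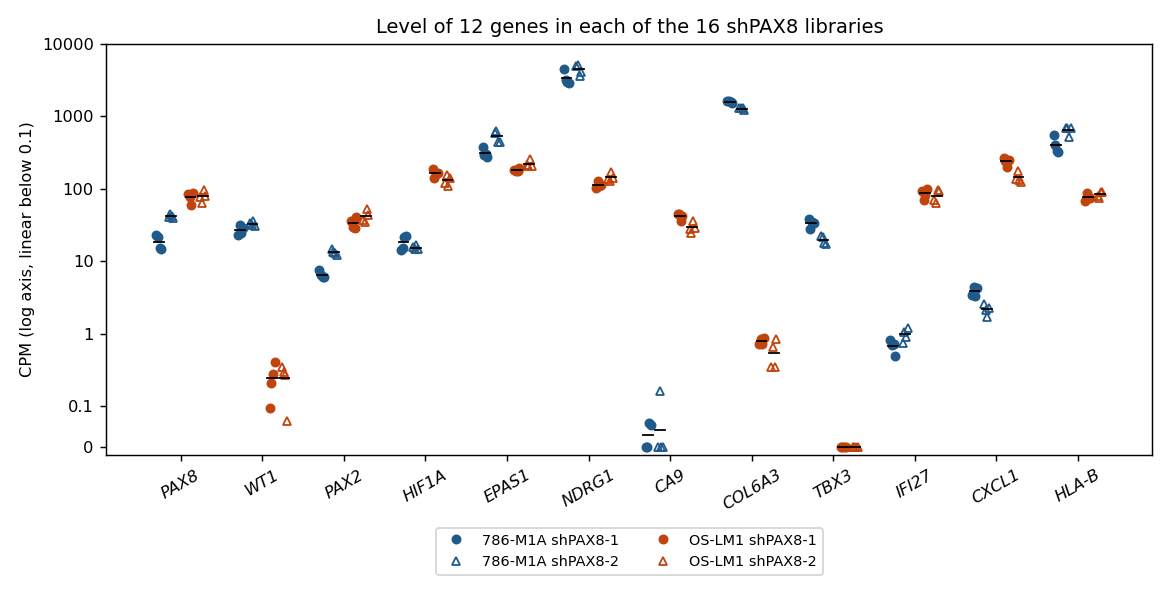
CPM of 12 genes (log axis, linear below 0.1 CPM) in each of the 16 libraries, with 786-M1A in blue and OS-LM1 in red, circles for shPAX8-1, triangles for shPAX8-2 and a black bar at the mean of the 4 libraries. For each of the 12 genes all libraries of one line lie above all libraries of the other, from EPAS1 (179 to 255 against 280 to 633 CPM) to TBX3, which is at 0 in OS-LM1.

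Among the 5 most highly expressed genes with a log2 difference of at least 2, 786-M1A was higher for FSTL1, NDRG1 and PABPC1 and OS-LM1 for ANXA2 and PKM. FSTL1, a secreted glycoprotein, ran from 3610 to 4770 CPM in 786-M1A and from 700 to 998 CPM in OS-LM1 (log2 fold change -2.36 ± 0.072, edgeR adjusted p = 2.4e-16). PABPC1, the cytoplasmic poly(A)-binding protein, differed by -2.31 (3960 to 4950 against 793 to 1120 CPM). ANXA2, a membrane-binding annexin, differed by 2.07 (953 to 1320 against 4180 to 5540 CPM in OS-LM1). None of the 5 overlapped between the lines.

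The nephron lineage genes were the next group. Of 38 listed renal transcription factors 22 could be tested, and 9 were called higher in OS-LM1, 11 higher in 786-M1A and 2 not called; 8 were strongly higher in each line, together 72.7% of the list against 45.2% of all genes, with a median log2 fold change of -0.343 (-0.595 with shPAX8-1 alone, -0.157 with shPAX8-2 alone). PAX2, the paralogue of PAX8, ran from 6.01 to 15.0 CPM in 786-M1A and from 29.1 to 53.6 CPM in OS-LM1, with no overlap and a log2 fold change of 2.00 ± 0.137 (edgeR adjusted p = 5.8e-11). HNF4A, a driver of proximal tubule differentiation, was detected in OS-LM1 only, at 0.700 to 2.74 CPM (at least 64.3-fold higher), and the bile acid receptor NR1H4 was higher by 5.53. Other factors led in 786-M1A. WT1, a factor of the nephron progenitor and podocyte, ran from 23.2 to 35.7 CPM in 786-M1A and from 0.0638 to 0.416 CPM in OS-LM1 (log2 fold change -6.92 ± 0.205, adjusted p = 1.6e-16). TBX3, without a count in OS-LM1, is also on this list.

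Proximal tubule genes were higher in OS-LM1. Of 50 listed, 26 were tested, and all 26 were called, 21 higher in OS-LM1 and 5 in 786-M1A. Strong differences numbered 18 and 4, no overlap 16 and 3, and the list median was 2.00. UGT2B7, a glucuronidating enzyme, ran from 11.9 to 19.9 CPM in OS-LM1 and had 1 library above 0 in 786-M1A (ratio 2090, 375 to 82500). SLC22A2, the organic cation transporter OCT2, ran from 1.16 to 3.20 CPM (ratio 104, 35.7 to 506). In the other direction, SLC13A3, a dicarboxylate transporter, ran from 26.9 to 48.8 CPM in 786-M1A and up to 0.105 CPM in OS-LM1 (log2 fold change -10.58 ± 0.258), and ASS1, of arginine synthesis, had a log2 fold change of -7.36 ± 0.189. AQP1, the water channel, was low in both lines (1.74 to 5.47 CPM in 786-M1A, 0.593 to 1.28 CPM in OS-LM1, log2 fold change -1.50). The strong count on the 786-M1A side was 2 in the shPAX8-1 libraries alone.

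Of 39 genes of the distal nephron and collecting duct only 10 were expressed enough to test. Of these, 5 were called higher in OS-LM1, 2 higher in 786-M1A and 3 not, with 4 and 2 strong and a median of 0.571. The 2 became 1 with shPAX8-1 alone and with the GC trend removed, and the median was 0.243 with shPAX8-2 alone. The growth factor EGF of the thick ascending limb ran from 1.98 to 3.64 CPM in 786-M1A and from 9.20 to 16.2 CPM in OS-LM1 (log2 fold change 2.22). AQP3 differed by 2.62 and the potassium channel KCNJ16 by 3.51, at up to 1.79 CPM in OS-LM1. SCNN1A, a subunit of the epithelial sodium channel, was higher in 786-M1A (log2 fold change -1.11, 2.54 to 4.33 against 0.770 to 2.32 CPM), and so was the anion exchanger SLC26A4 (-1.27), whose libraries overlapped.

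**Figure D3:**
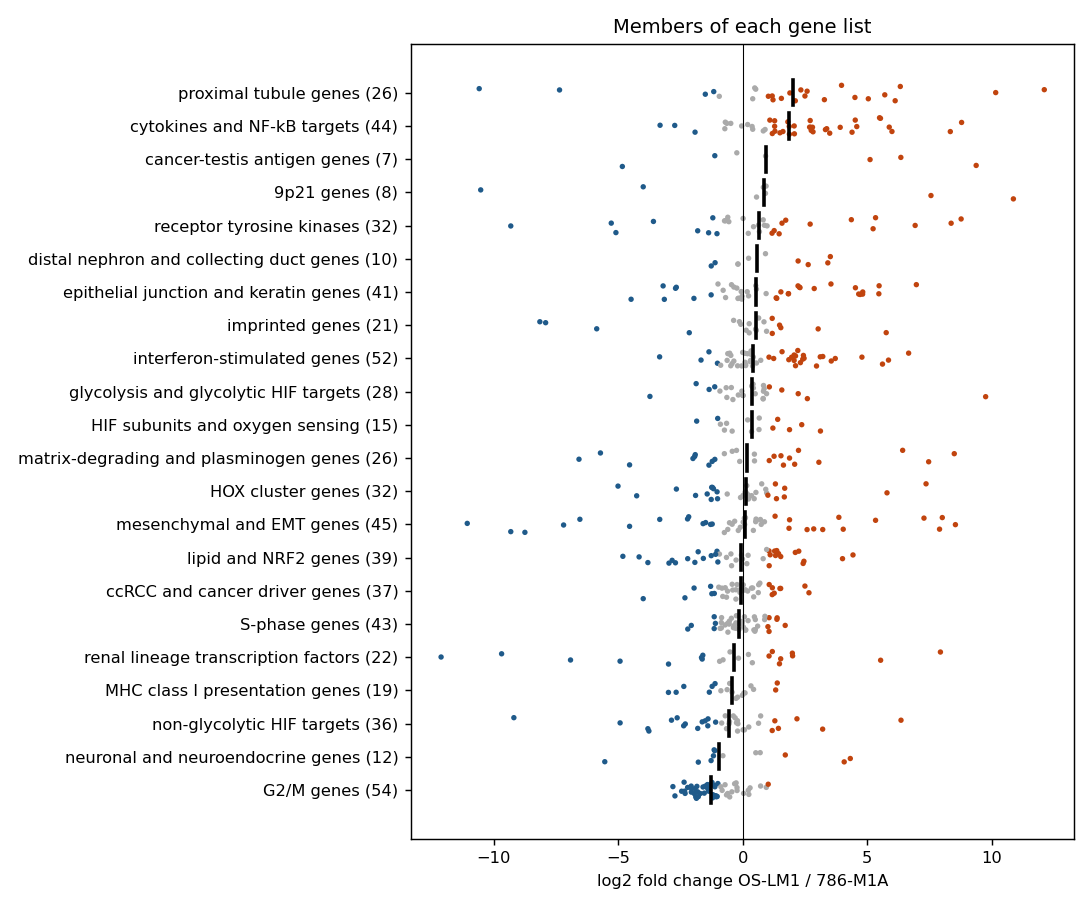
Each point is a tested member of a gene list (number tested in brackets) at its log2 fold change OS-LM1 over 786-M1A, in red or blue where it differed strongly and grey otherwise, with a black bar at the list median. Proximal tubule genes (median 2.00) and cytokines (1.87) lie furthest to the OS-LM1 side and G2/M genes (-1.29) furthest to the 786-M1A side.

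The hypoxia-inducible factors differed in opposite directions. HIF1A (chromosome 14, 61695513 to 61748258) ran from 14.4 to 22.3 CPM in 786-M1A (median 15.6) and from 111 to 187 CPM in OS-LM1 (median 148). The libraries did not overlap, and the log2 fold change was 3.12 ± 0.112 (edgeR adjusted p = 2.9e-15). EPAS1 (chromosome 2, 46297407 to 46386697) ran from 280 to 633 CPM in 786-M1A (median 412) and from 179 to 255 CPM in OS-LM1 (median 200), a log2 fold change of -1.01 ± 0.108 (adjusted p = 4.9e-08). Within shPAX8-1 alone the EPAS1 difference was -0.78 and so not strong, and within shPAX8-2 it was -1.30. Of the 15 subunits and oxygen sensors, 9 were called higher in OS-LM1 and 6 in 786-M1A, 5 and 2 of them strongly, with a median of 0.350. The strong count in 786-M1A was 0 with shPAX8-1 alone, and the median was 0.155 with shPAX8-2 alone and 0.231 without replicates 3 and 4 of 786-M1A shPAX8-1. EGLN1, the prolyl hydroxylase PHD2, differed by 2.37 ± 0.126 (18.2 to 34.7 against 94.5 to 145 CPM), and ARNT2, a dimer partner of the HIF subunits, by 1.88 ± 0.090 (13.6 to 21.4 against 47.1 to 82.9 CPM).

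HIF targets were split between the lines. Of 36 tested targets outside glycolysis, 23 were called higher in 786-M1A and 9 in OS-LM1 (14 and 6 strongly, median -0.543, or -0.360 with shPAX8-1 alone). NDRG1, a stress-induced differentiation protein, ran from 2920 to 5160 CPM in 786-M1A (median 3840) and from 103 to 170 CPM in OS-LM1 (median 127), with a log2 fold change of -4.92 ± 0.121 (edgeR adjusted p = 1.2e-17). INHBB, the inhibin beta B chain, ran from 30.5 to 41.2 CPM and up to 0.194 CPM (-9.19 ± 0.245), and HILPDA, an inhibitor of lipid droplet breakdown, from 22.2 to 44.6 CPM and from 1.88 to 2.74 CPM (-3.81 ± 0.132). NDUFA4L2, a mitochondrial protein and frequent ccRCC marker, went the other way, at up to 0.648 CPM in 786-M1A and 17.8 to 31.3 CPM in OS-LM1 (6.35 ± 0.306). Also higher in OS-LM1 were the secreted lipase inhibitor ANGPTL4 (3.20 ± 0.258) and ceruloplasmin, CP (2.17 ± 0.107). Of 28 glycolytic genes, 14 were called higher in OS-LM1 and 10 in 786-M1A, 5 and 4 strongly, with a median of 0.384 that was 0.205 without replicates 3 and 4 of 786-M1A shPAX8-1 and 0.238 with shPAX8-2 alone. CA9, the tumour carbonic anhydrase, had 25 to 45.2 CPM in OS-LM1 against 5 counts over the 8 786-M1A libraries (9.75 ± 0.277, adjusted p = 8.9e-17). PDK1, a kinase that inhibits pyruvate dehydrogenase, differed by 2.59 and PKM, pyruvate kinase M, by 2.22 (540 to 1000 against 3330 to 3980 CPM). The glucose transporter SLC2A3 (-3.73; 157 to 247 against 12.7 to 17.2 CPM), hexokinase HK2 (-1.87) and phosphofructokinase PFKL (-1.35, libraries overlapping) were higher in 786-M1A. After removal of the GC trends of the libraries, the 4 strong glycolytic genes on that side became 2.

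The neighbours of a HIF2A enhancer on chromosome 11 were higher in 786-M1A. CCND1, cyclin D1, ran from 341 to 947 CPM in 786-M1A (median 561) and from 249 to 476 CPM in OS-LM1 (median 341), so the lines overlapped although the log2 fold change of -0.71 ± 0.111 was called (edgeR adjusted p = 8.9e-06). MYEOV beside it ran from 23.7 to 57.8 CPM and from 7.90 to 14.7 CPM without overlap (-1.81 ± 0.121, adjusted p = 3.9e-11). MYC (chromosome 8, 127735434 to 127742951) ran from 145 to 246 CPM in 786-M1A (median 173) and from 140 to 221 CPM in OS-LM1 (median 185). Over both constructs MYC was not called (log2 fold change 0.02 ± 0.125, adjusted p = 0.9), while within shPAX8-1 it was lower in OS-LM1 (-0.36, adjusted p = 0.011) and within shPAX8-2 higher (0.40, adjusted p = 0.006). The lines thus showed no single difference in MYC.

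The 16 markers of ccRCC or renal epithelium were expressed unevenly. Each had counts in both lines, but CA9 and NDUFA4L2 had only 5 and 42 counts over the 8 786-M1A libraries. Of the 16, 11 were called higher in OS-LM1 and 5 in 786-M1A (8 and 3 strongly, median 0.778). The 3 became 1 with shPAX8-1 alone and with the GC trend removed, where the median was 0.503. KRT8 and KRT18, the keratin pair of simple epithelia, were higher in OS-LM1, KRT8 at 220 to 384 CPM against 32.6 to 72.7 CPM (2.27 ± 0.138) and KRT18 at 373 to 577 CPM against 93.1 to 176 CPM (1.82 ± 0.084). Vimentin, VIM, the intermediate filament that ccRCC shares with mesenchyme, was abundant in both, at 7510 to 8540 CPM in 786-M1A and 3670 to 5580 CPM in OS-LM1 (-0.74 ± 0.083). The cadherins CDH2 (0.53 ± 0.079) and CDH6 (0.52 ± 0.091) were slightly higher in OS-LM1, and CD70, a ligand that ccRCC often displays, was higher in 786-M1A (-1.40 ± 0.142). VIM, KRT18, CDH2 and CDH6 are named as defining markers, outside the rule for naming genes.

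Epithelial genes leaned to OS-LM1. Of 41 tested junction and keratin genes, 22 were called higher in OS-LM1 and 11 in 786-M1A, 18 and 7 strongly, with a median of 0.519. The desmosome and junction genes led, with JUP (plakoglobin) at 0.386 to 2.60 CPM in 786-M1A and 87.6 to 231 CPM in OS-LM1 (6.96 ± 0.245) and PKP2 (plakophilin) at 0.171 to 0.467 CPM and 10.1 to 17.7 CPM (5.47 ± 0.179). The keratin KRT17 was at up to 0.157 CPM in 786-M1A and 0.896 to 4.07 CPM in OS-LM1. EPCAM, an adhesion molecule of epithelia, was higher in 786-M1A (-2.70 ± 0.236; 1.68 to 3.86 against 0.140 to 0.831 CPM), as were the splicing factor ESRP2 (-4.48) and the keratin KRT86 (-3.15, overlapping), both at low levels. Without replicates 3 and 4 of 786-M1A shPAX8-1 the epithelial median was 0.272. Within shPAX8-2 alone, where 37 genes were tested, 4 rather than 7 were strongly higher in 786-M1A and the median was 0.850.

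Mesenchymal and matrix genes went both ways. Of 45 mesenchymal genes tested, 19 were called higher in OS-LM1 and 18 in 786-M1A, 13 strongly in each, and the median of 0.0742 lay between -0.154 (GC trend removed) and 0.127 (shPAX8-1 alone), at -0.150 with shPAX8-2 alone and at -0.00746 and 0.00795 without replicates 1 and 2 or 3 and 4 of 786-M1A shPAX8-1. COL6A3 (chromosome 2, 237324018 to 237414164), a chain of collagen VI, ran from 1240 to 1650 CPM in 786-M1A (median 1410) and from 0.350 to 0.869 CPM in OS-LM1 (median 0.722), a log2 fold change of -11.06 ± 0.149 (edgeR adjusted p = 6e-21). PDGFRB, the receptor of pericytes and fibroblasts, ran from 189 to 879 CPM and from 0.279 to 1.25 CPM (-9.31 ± 0.269), and FOXC2, a forkhead factor, had no count in OS-LM1 (at least 169-fold higher in 786-M1A). COL5A2, of collagen V, had the opposite pattern, with 0.498 to 1.32 CPM in 786-M1A and 114 to 464 CPM in OS-LM1 (8.01 ± 0.206), and so did CDH11, the osteoblast cadherin (8.53 ± 0.196; up to 0.300 against 42.5 to 58.1 CPM). POSTN, periostin, was near 0 in 786-M1A and at 7.29 to 10.7 CPM in OS-LM1 with shPAX8-1 but at 0.560 to 1.19 CPM with shPAX8-2. The largest differences of the list thus had either sign.

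Of 26 matrix-degrading and plasminogen genes, 12 were called higher in each line, 11 strongly in OS-LM1 and 9 in 786-M1A, with a median of 0.170. The OS-LM1 count was 6 in the shPAX8-2 libraries alone. The median was 0.0577 with shPAX8-1 alone, -0.586 with shPAX8-2 alone, -0.0138 with the GC trend removed, and -0.120 and -0.00759 without replicates 1 and 2 or 3 and 4 of 786-M1A shPAX8-1. MMP2, the gelatinase of mesenchymal cells, ran from 532 to 1360 CPM in 786-M1A and from 30.1 to 47.2 CPM in OS-LM1 (-4.54 ± 0.200), and MMP9 (-6.58) and the membrane-bound MMP16 (-5.71) had the same direction at 1.56 to 4.52 CPM. The stromelysin MMP3 ran from 0.166 to 0.882 CPM in 786-M1A and from 24.8 to 392 CPM in OS-LM1 (8.49 ± 0.329). SERPINB2, an inhibitor of plasminogen activators, ran from 0.162 to 1.44 CPM and from 13.7 to 111 CPM (6.42 ± 0.189), and TIMP3, a tissue inhibitor of metalloproteinases, was at 0 in 786-M1A and at 0.510 to 1.36 CPM in OS-LM1 (at least 46.3-fold higher).

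HOX genes, which carry positional identity, went both ways. Of 39 listed 32 were tested, 13 called higher in OS-LM1 and 12 in 786-M1A, a share close to the 80.5% of all genes, and 7 and 11 strongly. The 11 became 6 in the shPAX8-1 libraries alone. The median of 0.145 was 0.236 with shPAX8-1 alone, -0.136 with shPAX8-2 alone and 0.0223 without replicates 3 and 4 of 786-M1A shPAX8-1. HOXA7 ran up to 0.200 CPM in 786-M1A and from 7.70 to 21.8 CPM in OS-LM1 (7.35 ± 0.301), HOXC11 differed by 5.79 and HOXB7 by 1.68. HOXB9 ran from 83.4 to 173 CPM in 786-M1A and from 2.71 to 4.75 CPM in OS-LM1 (-5.01 ± 0.146), HOXB8 differed by -2.67 and HOXD1 by -4.26. Neighbours in the HOXB cluster thus had opposite signs.

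Of 49 cancer-testis antigen genes only 7 were tested, 3 called higher in each line and 1 not. TDRD1, of the germline piRNA pathway, ran from 23.7 to 31.1 CPM in OS-LM1 and up to 0.114 CPM in 786-M1A (9.37 ± 0.257), SSX1 differed by 5.11 and MAGEC1 had a ratio of 144 (25.8 to 5670). SSX1 and MAGEC1 have close paralogues and are uncertain. The 3 higher in OS-LM1 were all strong, against 2 in 786-M1A, and the list median was 0.913. With shPAX8-1 alone 4 genes were tested, the 786-M1A count was 0 and the median 4.93, with shPAX8-2 alone 6 were tested, the count was 1 and the median 3.91, and after thinning the median was 5.22. Of 21 imprinted genes tested, 12 were called higher in OS-LM1 and 4 in 786-M1A, 6 and 4 strongly, with a median of 0.514 (0.286 with shPAX8-1 alone, 0.324 with the GC trend removed). PEG10, a domesticated retrotransposon gene, ran from 114 to 218 CPM and from 370 to 562 CPM in OS-LM1 (1.52 ± 0.084), NAP1L5 differed by 3.02 and RTL1 by 5.76. ZDBF2 (-7.91 ± 0.256; 23.8 to 35.4 CPM against up to 0.302 CPM), TP73 (-5.86) and NDN, which had no count in OS-LM1 (at least 110-fold higher in 786-M1A), were the other way round.

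Interferon-stimulated genes, many of which encode antiviral proteins, were more often higher in OS-LM1. Of 52 tested, 31 were called higher in OS-LM1, 12 in 786-M1A and 9 not, 23 and 4 strongly, with a median of 0.411. The median was 0.758 with shPAX8-1 alone (24 and 3 strong) and 0.137 with shPAX8-2 alone (19 and 5 strong). IFI27 (chromosome 14, 94105894 to 94116690) ran from 0.496 to 1.20 CPM in 786-M1A (median 0.790) and from 65.0 to 101 CPM in OS-LM1 (median 87.3), a log2 fold change of 6.66 ± 0.164 (edgeR adjusted p = 1.2e-17). OAS2, a sensor of double-stranded RNA, ran from 0.108 to 0.961 CPM and from 12.5 to 41.5 CPM (5.85 ± 0.147), and EPSTI1 differed by 5.61. Tetherin, BST2, was higher in 786-M1A (-1.68 ± 0.114; 170 to 372 against 70.3 to 91.9 CPM), as were HERC5 (-3.34), a ligase of the ubiquitin-like ISG15, and DHX58 (-1.36), a RIG-I-like helicase. The list thus held genes of both directions, with the largest differences on the OS-LM1 side.

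Antigen presentation genes did not share that lean. Of 19 MHC class I genes tested, 11 were called higher in 786-M1A and 4 in OS-LM1. Strong differences numbered 6 and 2, together 42.1% of the list, which is close to the 45.2% of all genes. The median was -0.431 (-0.281 with the GC trend removed, where the 6 became 4). HLA-B ran from 325 to 693 CPM in 786-M1A (median 545) and from 67.9 to 92.1 CPM in OS-LM1 (median 77.9), a log2 fold change of -2.68 ± 0.132. HLA-C (-2.98 ± 0.142) was higher in 786-M1A too, without overlap. The HLA genes are highly polymorphic and reads were counted on a reference genome, so alleles that map less well cannot be told apart from lower expression. The peptide trimmer ERAP1 (1.32 ± 0.092) and the tapasin homologue TAPBPL (1.38 ± 0.164) were higher in OS-LM1.

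Cytokines and NF-kB targets were among the lists furthest to the OS-LM1 side. Of 44 tested, 35 were called higher in OS-LM1 and 7 in 786-M1A, 31 and 3 strongly (77.3% strong against 45.2% of all genes), 27 and 5 without overlap, with a median of 1.87. CXCL1, a neutrophil chemokine, ran from 1.74 to 4.43 CPM in 786-M1A (median 2.96) and from 125 to 271 CPM in OS-LM1 (median 191), with a log2 fold change of 5.99 ± 0.123 (edgeR adjusted p = 1.6e-18). CCL20, the CCR6 ligand, ran up to 0.249 CPM and from 25.3 to 60.3 CPM (8.78 ± 0.272), and PTGS2, cyclooxygenase 2, from 0.0830 to 0.551 CPM and from 80.7 to 121 CPM (8.33 ± 0.181). The death ligand TNFSF10 (TRAIL) was higher in 786-M1A (-3.32 ± 0.251; 163 to 667 against 28.5 to 41.2 CPM), as was the chemokine CCL26 (-2.73 ± 0.149).

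Of 32 receptor tyrosine kinases tested, 18 were called higher in OS-LM1 and 12 in 786-M1A, 12 and 8 strongly, with a median of 0.648. ERBB4, a neuregulin receptor, ran up to 0.166 CPM in 786-M1A and from 17.4 to 26.1 CPM in OS-LM1 (8.76 ± 0.279), ROS1 from 7.02 to 47.8 CPM in OS-LM1 (6.92 ± 0.278), and NTRK2 was at 0 in 786-M1A (at least 90.4-fold higher). In 786-M1A, PDGFRB, EPHA4, an ephrin receptor (-5.09 ± 0.210; 14.7 to 22.7 against 0.237 to 0.945 CPM), and TIE1 (-5.28; 1.00 to 2.02 CPM) led. With the GC trend removed 5 rather than 8 receptors were strongly higher in 786-M1A.

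Of 37 cancer driver genes tested, 15 were called higher in OS-LM1 and 17 in 786-M1A, 8 and 6 strongly, with a median of -0.0811 that was 0.0166 without replicates 1 and 2 of 786-M1A shPAX8-1, 0.00306 with shPAX8-2 alone and 0.0242 with the GC trend removed. MDM2, an E3 ubiquitin ligase, ran from 68.4 to 106 CPM in 786-M1A and from 419 to 563 CPM in OS-LM1 (2.49 ± 0.107). NFE2L2, the oxidative stress factor NRF2, differed by 1.52 ± 0.127. The tumour suppressors RASSF1 (-2.32 ± 0.173) and FHIT (-1.96 ± 0.151), both on the short arm of chromosome 3, were higher in 786-M1A. MTAP (chromosome 9, 21802636 to 21941115), the methionine salvage enzyme that is often lost together with its neighbour CDKN2A, ran from 23.1 to 41.8 CPM in 786-M1A and from 1.32 to 2.37 CPM in OS-LM1 (-4.0 ± 0.152). CDKN2A and CDKN2B did not pass the filter on low counts. Of the 8 tested genes of 9p21, 6 were called higher in OS-LM1 and 2 in 786-M1A, 2 strongly in each, with a median of 0.867 (0.552 with the GC trend removed). HACD4, a very long chain fatty acid dehydratase, ran from 26.8 to 49.7 CPM in OS-LM1 (ratio 2580, 713 to 21300), the RNA-binding ELAVL2 was at 0 in 786-M1A (at least 50.5-fold higher in OS-LM1), and DMRTA1 was at 0 in OS-LM1 (at least 592-fold higher in 786-M1A). Neighbours within 9p21 therefore differed in opposite directions.

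Lipid and NRF2 genes were spread evenly. Of 39 tested, 16 were called higher in OS-LM1 and 18 in 786-M1A, 14 strongly in each, with a median of -0.0555. The OS-LM1 count was 8 with shPAX8-1 alone and the 786-M1A count 9 with shPAX8-2 alone, with medians of -0.291 and 0.137, and the median was -0.00893 without replicates 1 and 2 of 786-M1A shPAX8-1. ABCC2, a conjugate exporter, ran from 1.93 to 4.82 CPM in 786-M1A and from 56.0 to 84.1 CPM in OS-LM1 (4.42 ± 0.118), and the fatty acid carrier CD36 differed by 2.45. The aldo-keto reductase AKR1C2 differed by 4.0 and has close paralogues. DGAT2, of triglyceride synthesis (-4.16 ± 0.156; 22.5 to 34.9 against 0.797 to 2.16 CPM), and the lipid droplet coat gene PLIN1 (-4.81) were higher in 786-M1A together with HILPDA.

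Mitotic genes were higher in 786-M1A. Of 54 genes of the G2/M list, 44 were called higher in 786-M1A, 4 in OS-LM1 and 6 not, 36 and 1 strongly, with a median of -1.29. The strong count in 786-M1A was 40 in the shPAX8-1 libraries and 25 in the shPAX8-2 libraries, with medians of -1.64 and -0.926. HJURP, the loader of the centromeric histone, ran from 117 to 162 CPM in 786-M1A (median 132) and from 15.4 to 24.5 CPM in OS-LM1 (median 19.5), a log2 fold change of -2.81 ± 0.110 (edgeR adjusted p = 1.1e-14). TTK, a spindle checkpoint kinase, ran from 26.9 to 126 CPM and from 6.01 to 10.9 CPM (-2.72 ± 0.270), and PSRC1, a spindle microtubule protein, from 42.1 to 57.5 CPM and from 7.70 to 11.3 CPM (-2.46 ± 0.104). TMPO, a nuclear lamina protein, was the 1 gene strongly higher in OS-LM1 (1.02 ± 0.140). S-phase genes had no such lean. Of 43, 14 were called higher in OS-LM1, 17 in 786-M1A and 12 not, 6 and 5 strongly, with a median of -0.155, and the 6 became 3 with shPAX8-1 alone, with the GC trend removed or without replicates 1 and 2 of 786-M1A shPAX8-1. The median was then -0.299, -0.245 and -0.0930, and it was -0.0548 without replicates 3 and 4. PCNA, the replication clamp (1.70 ± 0.139; 40.6 to 85.1 against 168 to 280 CPM), the replication fork protein TIPIN (1.37) and the uracil glycosylase UNG (1.38) were higher in OS-LM1. ATAD2 (-2.21 ± 0.121), DSCC1 (-2.07), which helps to load PCNA, and CDCA7 (-1.15) were higher in 786-M1A.

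Of 12 neuronal and neuroendocrine genes tested, 5 were called higher in OS-LM1 and 7 in 786-M1A, 3 and 6 strongly, with a median of -0.963. The 6 became 3 with the GC trend removed. Neurofilament NEFL ran from 4.80 to 10.1 CPM in 786-M1A and from 78.3 to 236 CPM in OS-LM1 (4.31 ± 0.101), the granin SCG2 from 0.0830 to 1.22 CPM and from 7.08 to 14.4 CPM (4.07 ± 0.196), and NEFM differed by 1.70 with overlap. The neuropeptide precursor VGF (-5.54 ± 0.302), the chaperone SCG5 (-1.79; 73.9 to 324 against 25.5 to 60.7 CPM) and the adhesion molecule L1CAM (-1.27, overlapping) were higher in 786-M1A.

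Markers of other cell types were mostly near 0. Of 14 immune markers, 9 stayed under 1 CPM in every library and CD3E, CD2, MS4A1 and CD163 had no count in either line, while PTPRC (CD45) had 34 counts in OS-LM1 and 14 in 786-M1A. The summed immune list ran from 203 to 369 CPM in OS-LM1 and from 205 to 408 CPM in 786-M1A. Most of this sum was CD68, with 53698 counts in OS-LM1, 41116 in 786-M1A and up to 399 CPM. CD14, LYZ and KLRD1 reached at most 3.64, 4.26 and 7.94 CPM. Of 5 tested immune markers 3 were called higher in OS-LM1, 1 strongly (ITGAM, 4.09, at 0.680 to 1.72 CPM; list median 0.869), and 2 strongly with shPAX8-1 alone or with the GC trend removed (median 0.573). Of 10 endothelial markers, 7 stayed under 1 CPM, CDH5 had 1 count in each line, and 2 of the 3 tested, TIE1 included, were strongly higher in 786-M1A (median -3.59; 1 of 2 tested with shPAX8-2 alone), with list sums of 1.60 to 3.34 CPM in OS-LM1 and 3.84 to 5.55 CPM in 786-M1A. Fibroblast markers were expressed unevenly. All 6 that could be tested differed strongly, 4 higher in OS-LM1 and 2 in 786-M1A (median 4.68, or 5.12 with genes of 3 counts or fewer at their counting ratio, and 0.546 with shPAX8-2 alone, where 4 were tested and 2 were strong in each line), with sums of 105 to 210 and 203 to 893 CPM. COL1A1 (4.03 ± 0.160; 4.68 to 11.8 against 88.0 to 204 CPM), COL3A1 (7.27) and POSTN were higher in OS-LM1, PDGFRB and LUM (-2.17) in 786-M1A, and DCN, THY1, FAP and COL1A2 were at most 1.16 CPM in any library.

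The differences were not evenly spread over the genome. The chromosome medians ran from -0.596 on chromosome 21 to 0.755 on chromosome 13. On chromosome 13, 116 of 278 tested genes (41.7%) were strongly higher in OS-LM1 against 21.9% of all genes, and on chromosome 15 it was 193 of 514 (37.5%, median 0.597). Chromosomes 12 (0.417), 14 (0.392), 17 (0.284) and 5 (0.280) also had medians above 0. On the other side, chromosome 8 had 182 of 523 genes (34.8%) strongly higher in 786-M1A against 23.3% of all, with a median of -0.554. Chromosomes 16 (-0.571), X (-0.524), 19 (-0.450) and 9 (-0.317) followed. Both constructs gave these signs.

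**Figure D4:**
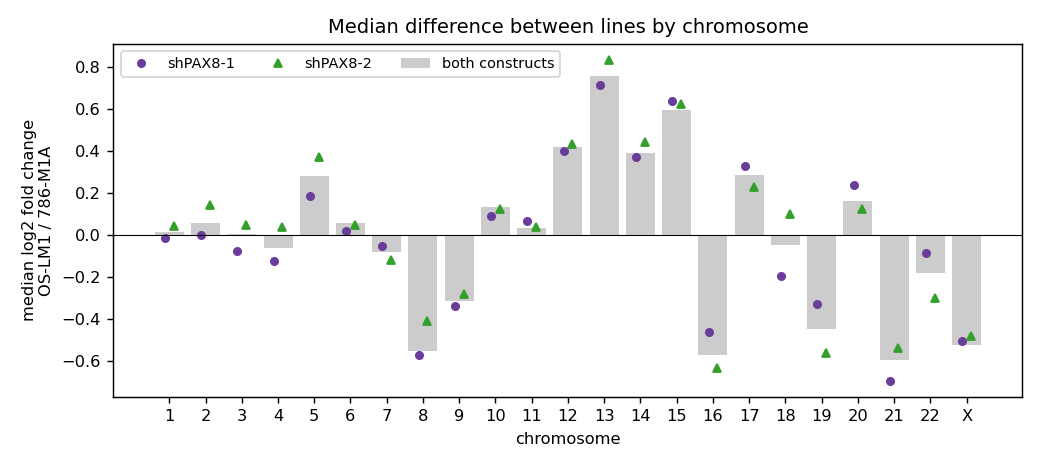
Median log2 fold change OS-LM1 over 786-M1A of the tested genes of each chromosome, with bars for both constructs together, circles for shPAX8-1 and triangles for shPAX8-2. Chromosomes 13 (0.755) and 15 (0.597) are highest and chromosomes 21 (-0.596), 16 (-0.571) and 8 (-0.554) lowest, and on each of these both constructs lie on the same side of 0.

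In windows of 10 Mb with at least 20 tested genes, 48 of 258 medians were above 0.5 and 35 below -0.5. The lowest was the end of chromosome 8, from 140000001 to 150000000, where 60 of 85 genes were strongly higher in 786-M1A and the median was -1.60 (-1.39 with shPAX8-1, -1.86 with shPAX8-2 and -1.75 in the sgNTC18 libraries). The window from 80000001 to 90000000 of that chromosome had a median of -1.33, with 17 of 25 genes strongly higher in 786-M1A and none in OS-LM1. The windows with the highest medians were on chromosome 5 from 50000001 to 60000000 (1.63; 17 of 29 genes strongly higher in OS-LM1) and chromosome 4 from 180000001 to 190000000 (1.47; 16 of 27). DNA was not measured in these libraries, and whether gene copies differ was not tested. Log2 fold changes also ran with GC content (Spearman's rho -0.203 across 14779 genes, which are not independent). When each library's GC trend was removed, log2 fold changes moved by a median of -0.113 per gene, the median of all genes was -0.039, and the median of chromosome 19, whose genes are rich in GC, moved to -0.172, that of chromosome 16 to -0.371, that of chromosome 13 to 0.557 and that of chromosome 8 to -0.644.

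The size of the difference between lines depended on the construct for 3453 genes (22.9%; edgeR test of the interaction of line and construct, adjusted p under 0.05), with a larger OS-LM1 over 786-M1A ratio under shPAX8-1 for 1637 (10.8%) and a smaller one for 1816 (12%). This count changed with the replicates of 786-M1A shPAX8-1 that entered, the only group from which pairs were left out. Without replicates 1 and 2 of that group the count was 6429, and without its replicates 3 and 4 it was 2067. Single libraries of other groups moved it too, to 2627 without OS-LM1 shPAX8-1 replicate 4 and 2701 without 786-M1A shPAX8-2 replicate 2. The range with any 1 library left out was 2605 to 4627. Of the 6826 strong differences, 1460 had a called interaction.

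MMP1, the interstitial collagenase, had one of the 3 largest interactions above 0 by the naming rule. In 786-M1A it was at 7.13 to 11.1 CPM with shPAX8-1 and 3.19 to 3.57 CPM with shPAX8-2, and in OS-LM1 at 88.8 to 138 CPM and 2.94 to 3.79 CPM. It was thus 3.58 higher in OS-LM1 on the log2 scale within shPAX8-1 and not called within shPAX8-2 (0.02, adjusted p = 0.94), with an interaction of 3.56 (edgeR adjusted p = 9.9e-08) and 2.08 ± 0.485 over both. MYO15B reversed between the constructs, at 1.30 with shPAX8-1 and -1.99 with shPAX8-2 (interaction 3.28, adjusted p = 2e-06), and over both it was not called (-0.35 ± 0.439, adjusted p = 0.46). SLN, sarcolipin, was lower in OS-LM1 with either construct (-3.82 with shPAX8-1, -7.76 with shPAX8-2) (interaction 3.94, adjusted p = 7.1e-06). The stromelysin MMP3 followed MMP1 in direction, at 358 to 392 CPM in OS-LM1 with shPAX8-1 and 24.8 to 30.3 CPM with shPAX8-2 (interaction 2.84, adjusted p = 0.00035). MMP12 was also higher with shPAX8-1 than with shPAX8-2 in OS-LM1, but it had no count in 786-M1A and its interaction was not called. MMP1, MMP3 and MMP12 lie next to each other on chromosome 11.

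Interactions below 0 were largest for genes that 786-M1A hardly expressed or that share sequence. GDA, guanine deaminase (29.7 to 39.0 CPM in OS-LM1), and FAM174B (11.1 to 28.5 CPM) were higher in OS-LM1 with both constructs (8.54 and 8.81 overall), and their interactions of -4.77 and -4.47 (edgeR adjusted p = 0.021 and 0.042) turn on 786-M1A levels of at most 0.386 and 0.188 CPM. C15orf38-AP3S2, a readthrough transcript that overlaps AP3S2 and is therefore uncertain, ran from 0 to 10.9 CPM in OS-LM1 and from 3.24 to 20.9 CPM in 786-M1A (-2.20 ± 0.769, adjusted p = 0.014; interaction -8.59, adjusted p = 0.041). Among the gene lists the G2/M list had 37 of 54 members with a called interaction, the lipid and NRF2 list 22 of 39, the matrix-degrading list 12 of 26, the ccRCC markers 7 of 16, the cytokine list 19 of 44, the HIF targets outside glycolysis 15 of 36, the neuronal list 5 of 12 and the mesenchymal list 18 of 45, against 22.9% of all genes. The other lists had smaller shares.

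The difference between lines in the shPAX8 libraries was last set against that in the 8 sgNTC18 libraries, where 4423 of 15665 genes tested in all 24 libraries (28.2%) differed strongly. A hairpin and a CRISPR guide are different vectors, and the study's own control for RNAi is another hairpin. Whether the sgNTC18 libraries were made in the same experiment as the shPAX8 libraries is not known here. PAX8 depletion, the kind of vector and a possible difference of experiment therefore cannot be told apart here. The difference between lines was not the same in the shPAX8 and sgNTC18 libraries for 9203 genes (58.7%; edgeR test of the interaction, adjusted p under 0.05), 4689 (29.9%) with a higher and 4514 (28.8%) with a lower OS-LM1 over 786-M1A ratio under shPAX8. Among the 15101 genes tested in both, 2944 differed strongly in the same direction with shPAX8 and with sgNTC18, which is 43.1% of the 6826 shPAX8 genes and 70.7% of the 4165 sgNTC18 genes. A further 171 differed strongly in opposite directions, 79 higher in OS-LM1 with shPAX8 and 92 higher in 786-M1A, and the difference was called for all 171.

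The interferon list differed in direction between the kinds of library. Of its 52 genes, 44 were strongly higher in 786-M1A and 1 in OS-LM1 in the sgNTC18 libraries (median -1.99), whereas 4 and 23 were so in the shPAX8 libraries. For 50 of the 52 the difference was called, all with the ratio higher under shPAX8, and 18 were strong in opposite directions. Levels below are CPM on the common scale of all 24 libraries. IFI27 was at 82.7 to 110 CPM in 786-M1A with sgNTC18 and at 0.497 to 1.20 CPM with shPAX8, while OS-LM1 stood at 65.0 to 81.7 and at 65.4 to 102 CPM. OAS2 was at 249 to 322 CPM in 786-M1A with sgNTC18 and at 0.108 to 0.963 CPM with shPAX8. In OS-LM1 it was at 31.3 to 41.6 CPM with sgNTC18, 37.5 to 41.6 CPM with shPAX8-1 and 12.6 to 14.2 CPM with shPAX8-2. EPSTI1 was at 26.6 to 29.4 CPM and at most 0.209 CPM in 786-M1A, and at 1.04 to 1.53 and 2.03 to 6.94 CPM in OS-LM1. The large OS-LM1 over 786-M1A ratios of these genes thus came with low levels in the 786-M1A shPAX8 libraries. For OAS2 and EPSTI1 the sgNTC18 libraries of 786-M1A were the highest, while for IFI27 they overlapped the OS-LM1 shPAX8 libraries.

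**Figure D5:**
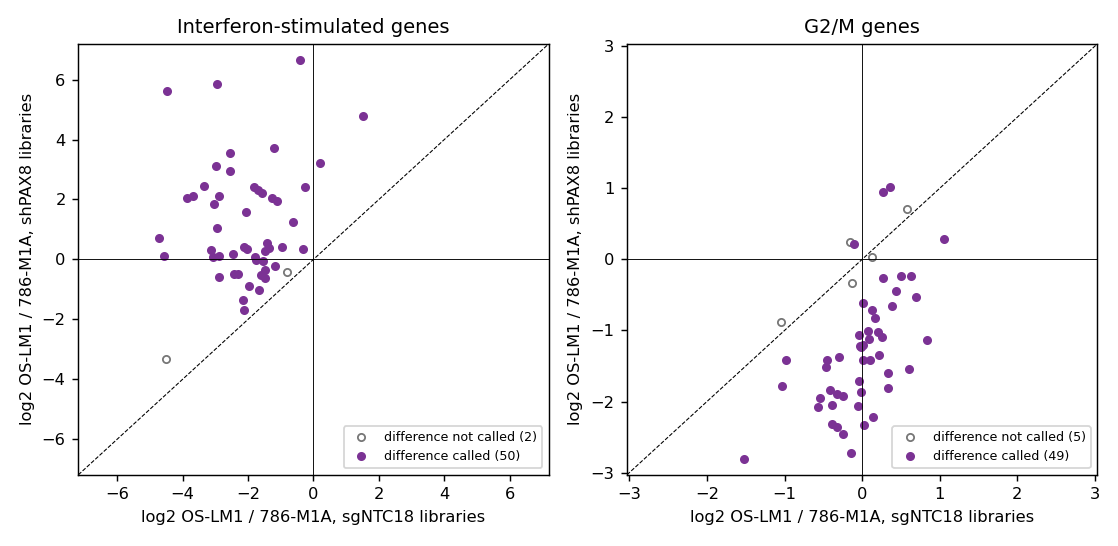
Log2 fold change OS-LM1 over 786-M1A of the interferon-stimulated genes (left, 52) and the G2/M genes (right, 54), in the sgNTC18 libraries on the x axis and in the shPAX8 libraries on the y axis; filled points are genes whose difference was called and the dashed line marks equality. Interferon genes lie above the line (50 of 52 called) and G2/M genes mostly below it (46 of 54).

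Mitotic genes moved the other way. In the sgNTC18 libraries the G2/M list had a median of 0.00989, with 1 gene strongly higher in OS-LM1 and 3 in 786-M1A, and for 49 of 54 the difference was called, 46 of them with the ratio lower under shPAX8. PSRC1 was at 45.8 to 58.4 CPM with sgNTC18 and 42.2 to 57.4 CPM with shPAX8 in 786-M1A, but at 38.1 to 48.8 and 7.73 to 11.3 CPM in OS-LM1. TTK was at 17.1 to 24 CPM with sgNTC18 and 26.9 to 127 CPM with shPAX8 in 786-M1A, and at 17.8 to 20.4 and 6.03 to 11 CPM in OS-LM1. The lines thus overlapped in the sgNTC18 libraries and were apart in the shPAX8 libraries.

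Single genes showed further patterns. KRT18 overlapped between the lines with sgNTC18 (200 to 226 and 198 to 225 CPM), and KRT8 stood at 209 to 271 CPM in 786-M1A and 220 to 268 CPM in OS-LM1. With shPAX8, KRT8 was at 32.6 to 72.7 CPM in 786-M1A and 221 to 386 CPM in OS-LM1 (difference adjusted p = 1.6e-10). NEFL was at 118 to 123 CPM in 786-M1A and 96.6 to 112 CPM in OS-LM1 with sgNTC18 (difference adjusted p = 3.1e-22). In OS-LM1 it was above that range with shPAX8-1 (216 to 237 CPM) and below it with shPAX8-2 (78.2 to 89.1 CPM). In 786-M1A it was at 8.84 to 10.1 CPM and 4.80 to 5.80 CPM. EPHA4, at 10.1 to 12.3 CPM in 786-M1A and 6.71 to 7.70 CPM in OS-LM1 with sgNTC18, was at 14.7 to 22.7 and at 0.239 to 0.949 CPM with shPAX8 (difference adjusted p = 6.5e-14). ANGPTL4 changed sign, from -3.03 with sgNTC18 to 3.20 with shPAX8 (difference adjusted p = 6.2e-18). TIE1 went from 0.61 with sgNTC18, which was not a strong difference, to -5.28 with shPAX8 (difference adjusted p = 6.2e-07). It was near the floor, with 7 counts in the OS-LM1 shPAX8 libraries and at most 2.02 CPM in those of 786-M1A. For other lists the difference was called for 31 of 44 cytokine genes (26 higher and 5 lower under shPAX8, sgNTC18 median 0.581), against 58.7% of all genes. It was called for 25 of 32 HOX genes (16 and 9) and 14 of 19 MHC class I genes (11 and 3, sgNTC18 median -1.17). Among HIF targets outside glycolysis it was called for 28 of 36 (7 and 21, sgNTC18 median -0.215), and among HIF subunits and oxygen sensors for 12 of 15 (6 and 6). Other shares above 58.7% were 10 of 12 neuronal, 20 of 26 matrix-degrading and 12 of 16 ccRCC marker genes. So were 29 of 41 epithelial, 26 of 37 driver, 31 of 45 mesenchymal and 26 of 39 lipid and NRF2 genes. Shares were under 58.7% for proximal tubule genes (13 of 26, 8 and 5) and S-phase genes (18 of 43, 8 and 10). The same held for renal transcription factors (11 of 22), distal nephron genes (5 of 10) and receptor tyrosine kinases (17 of 32). Imprinted (12 of 21) and glycolytic genes (16 of 28) were just under it. Proximal tubule genes also led in OS-LM1 with sgNTC18, at a median of 1.31, with 16 strongly higher there and 4 in 786-M1A. The chromosome X median was 0.298 with sgNTC18 and -0.524 with shPAX8, while chromosome 8 stood at -0.536 and -0.554.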

How the data were processed

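Transcript levels of 786-M1A and OS-LM1 cells, measured by RNA-seq, were analysed from the gene tables that the authors deposited. The authors mapped reads to hg38 (GRCh38) with Bowtie2 and RSEM, whose versions are not given in the sources used here, nor is the annotation release. The values used are the expected counts deposited for 26475 genes per library, without normalization, and the TPM values deposited by the authors in the same tables were not used. A KAPA stranded mRNA kit is named by the labels, and Lexogen kits by the study's methods. Groups were taken from the labels. The genes compared and the gene lists were chosen with earlier results of these data known.

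The counts were rounded to whole numbers, and edgeR 4.0.16 was run in R 4.3.3. Genes were filtered with filterByExpr by group, libraries normalised by TMM, and lines compared with the robust quasi-likelihood test, construct as covariate and Benjamini-Hochberg adjustment. Within-construct values and the interaction of line and construct used each line and construct as its own group, and the comparison with sgNTC18 used all 24 libraries. Standard errors were derived from the F statistic, and CPM uses the TMM-normalised library size. Counting intervals (exact Poisson, 95%) and floors (3 counts) cover counting error only. No pair of replicates agreed within sampling noise. The fits were tested on simulated data with known differences.

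The genes named were PAX8, MYC, CCND1, MYEOV, EPAS1 and HIF1A. To these were added the 12 largest called differences in each direction (at least 10 CPM in the higher line, same direction in both constructs, no overlap), up to 3 strong genes per direction in each list (at least 1 CPM), the 5 most abundant genes with a log2 difference of at least 2, and the 3 largest called interactions in each direction (at least 10 CPM in a group). Y-linked genes and XIST were left out, and some genes that met these rules are not reported here. Gene positions and GC content come from the GRCh38 reference annotation, to which 25653 genes were matched by transcript accession, 484 by symbol and 198 by synonym, with 140 unmatched. Alternatives were DESeq2 1.42.0 and its size factors, no filter beyond 1 count, the replicate number as a block, no construct covariate, separate groups for every line and construct, a single construct, thinned counts, GC trends removed, a stricter p or fold, glmTreat, each library left out, and pairs of 786-M1A shPAX8-1 replicates left out. Recomputed list counts were added after the data were seen.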

Additional observations from a re-analysis of the deposited data

Results flagged for a closer look

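In a group of 4 libraries a single library can stand far from the other 3. By Dixon's test at the 95% level this was so for 19 of 454 groups tested, and chance flags about 1 in 20 groups. The groups were those of a named gene with a mean of at least 1 CPM, together with the library totals, none of which was flagged. In 786-M1A shPAX8-1 replicate 1 stood apart for AQP1 at 2.52 CPM (the others 1.74 to 1.86), DHX58 at 10.5 CPM (the others 6.13 to 6.39), MYEOV at 34.8 CPM (the others 23.7 to 25.3), NDRG1 at 4510 CPM (the others 2920 to 3190) and TSHZ3 at 32.1 CPM (the others 25.3 to 26.2). In 786-M1A shPAX8-2 replicate 3 stood apart for ATAD2 at 119 CPM (the others 92.7 to 95.1), ESRP2 at 1.49 CPM (the others 0.865 to 0.933), HLA-B at 529 CPM (the others 690 to 693), MMP1 at 3.57 CPM (the others 3.19 to 3.24) and NFE2L2 at 287 CPM (the others 238 to 240). In replicate 4 of 786-M1A shPAX8-2 it was BST2 at 372 CPM (the others 263 to 279). In OS-LM1 shPAX8-1 replicate 1 stood apart for CDCA7 at 20.7 CPM (the others 15.5 to 15.9). In replicate 2 of OS-LM1 shPAX8-1 it was SLC22A2 at 1.16 CPM (the others 1.88 to 1.99) and TIMP3 at 1.05 CPM (the others 1.32 to 1.36). In OS-LM1 shPAX8-1 replicate 3 stood apart for COL5A2 at 464 CPM (the others 318 to 333). In OS-LM1 shPAX8-2 replicate 1 stood apart for HILPDA at 1.96 CPM (the others 2.42 to 2.49). In replicate 3 of OS-LM1 shPAX8-2 it was ADD2 at 91.6 CPM (the others 65.4 to 69.2). In replicate 4 of OS-LM1 shPAX8-2 it was COL3A1 at 2.55 CPM (the others 3.2 to 3.28) and RASSF1 at 2.46 CPM (the others 3.29 to 3.38).

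The difference between lines depended on the construct for 3453 genes, and 39 of the genes named were among them. Values are the log2 fold change OS-LM1 over 786-M1A with shPAX8-1 minus that with shPAX8-2, followed by the adjusted p of edgeR's quasi-likelihood test. The ratio was higher under shPAX8-1 for POSTN (6.35, 0.018), SLN (3.94, 7.1e-06), MMP1 (3.56, 9.9e-08), MYO15B (3.28, 2e-06), MMP3 (2.84, 0.00035), AQP3 (2.48, 0.0023), NEFM (1.89, 0.025) and ANGPTL4 (1.87, 0.00017). Smaller values above 0 were found for TNFSF10 (1.83, 2e-06), CD36 (1.67, 0.0072), LUM (1.42, 0.027), NAP1L5 (1.41, 0.0043), MMP2 (1.28, 0.0001), JUP (1.23, 0.042), AQP1 (1.20, 0.019) and HOXB8 (1.17, 0.00077). Also above 0 were COL5A2 (1.16, 0.017), PAX8 (1.16, 0.0015), SCNN1A (0.97, 0.028), UNG (0.96, 0.0007), PAX2 (0.69, 0.024), PKM (0.55, 0.009), NEFL (0.51, 0.011), EPAS1 (0.51, 0.044) and VIM (0.43, 0.024). The ratio was lower under shPAX8-1 for C15orf38-AP3S2 (-8.59, 0.041), KRT17 (-4.87, 0.027), GDA (-4.77, 0.021), FAM174B (-4.47, 0.042), TTK (-1.55, 0.0051), RASSF1 (-0.87, 0.026), TMPO (-0.87, 0.0029) and DSCC1 (-0.85, 0.045). Smaller values below 0 were found for SCG5 (-0.78, 0.049), MYC (-0.77, 0.0041), MTAP (-0.72, 0.03), HJURP (-0.64, 0.003), HOXB9 (-0.63, 0.043) and CP (-0.51, 0.028). For KRT17, GDA and FAM174B the value turns on levels near 0 in 786-M1A. For POSTN it does so in part, since POSTN also differed between the constructs in OS-LM1.

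The difference between lines was not the same in the shPAX8 and sgNTC18 libraries for 9203 genes. The parts of PAX8 depletion, of the vector and of a possible difference of experiment in this count cannot be told apart.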

How the results depend on the processing

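The 12160 genes that differed between the lines were 14059 without a filter on low counts, 12267 by DESeq2, 11951 with the replicate block, 11496 after thinning to the smallest total, 11076 at an adjusted p under 0.01, 10675 and 11239 with either construct alone, and 12093 to 12385 with 1 library left out. The 6826 strong differences were 6831 by DESeq2, 6826 with the replicate block, 5369 by glmTreat, 8852 without a filter, 6851 to 7104 with 1 library left out and 2879 at a minimum log2 fold change of 2. The 3453 interactions with construct were 6429 without replicates 1 and 2 of 786-M1A shPAX8-1, 2067 without its replicates 3 and 4, 1632 at an adjusted p under 0.01, 3023 with the replicate block and 2605 to 4627 with 1 library left out. The 9203 differences from the sgNTC18 libraries were 9072 with the replicate block and 8708 to 9358 with 1 library left out. The replicate numbers did not pair the libraries across lines. Deviations of same-numbered libraries across lines correlated at -0.0416 on average (-0.322 to 0.215, 8 pairs) against 0.0142 for other numbers. Between the constructs of 786-M1A all same-numbered pairs were above 0, at 0.245, 0.175, 0.306 and 0.0372, while other numbers ran from -0.409 to 0.358. Whether replicate numbers of that line stand for shared batches was not tested. In OS-LM1 same-numbered pairs ran from -0.188 to 0.146. Not every pair was thus over 0.1, and the block ended no call of a named gene.

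Of 4606 values of the 159 genes named, under up to 29 alternatives each, 4586 stayed on the same side of the threshold with an unchanged sign. The exceptions were 4 genes. MMP1 was -0.022 with shPAX8-2 alone (adjusted p = 0.91, edgeR). MYC was not called over both constructs and was -0.39 with shPAX8-1 alone, 0.36 with shPAX8-2 alone, -0.008 without the construct covariate, -0.042 after thinning, -0.074 with the GC trend removed, and -0.05 to 0.10 with 1 library left out. MYO15B was 1.27 with shPAX8-1 alone, -2.02 with shPAX8-2 alone and 0.33 with the GC trend removed. C15orf38-AP3S2 lost its call without the construct covariate (-1.27), with shPAX8-2 alone (-0.86) and without replicates 3 and 4 of 786-M1A shPAX8-1 (-1.85). Of 343 recomputed medians of lists and chromosomes 25 changed sign, among them those of the matrix-degrading (-0.12 without replicates 1 and 2 of 786-M1A shPAX8-1), mesenchymal (-0.154 with the GC trend removed) and driver gene lists (0.0242 with the GC trend removed), and those of chromosomes 1, 2, 3, 4, 6, 10, 11 and 18, which lay near 0. The cause was not tested. Depth limits genes at or near 0 counts, for which bounds or counting ratios are given.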
